A study of Homo sapiens with 7 samples.

Results

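GADD45A, GADD45B and GADD45G encode the GADD45 stress sensor proteins, and PLK2 and PLK3 encode the stress-responsive members of the polo-like kinase family. The array carried 10 probe sets annotated to one of these 5 genes alone, out of 54675 probe sets and 19775 genes in all: 1 for GADD45A, 4 for GADD45B, 1 for GADD45G, 1 for PLK2 and 3 for PLK3. They were singled out because the genes had moved with heat in these same arrays, and the probe sets of a gene are given separately because those of PLK3 disagree. Their values are therefore a description and are given without a test. RNA came from HSC-3, an established cell line of human oral squamous cell carcinoma. The 7 conditions were an untreated control culture kept at 37 °C, and cultures heated at 42 °C or at 44 °C for 90 min and taken after 0, 6 or 12 h of recovery at 37 °C. Each condition was measured on 1 Affymetrix U133 Plus 2.0 array, so no difference has a replicate check, and the number of arrays limits the precision. In RNA from a whole culture, less transcript per cell and fewer cells that hold the transcript cannot be told apart.

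The GADD45 proteins are small acidic nuclear proteins with no enzymatic activity of their own. They bind and activate the kinase MAP3K4 upstream of the p38 and JNK stress kinases, and they bind PCNA, the cyclin-dependent kinase inhibitor CDKN1A and the mitotic kinase CDK1. GADD45A is a classical gene of the DNA damage response, GADD45B is induced by NF-kB and TGF-beta signalling, and GADD45G is induced by cytokines. PLK2 and PLK3 were found as immediate early genes of growth factor stimulation. PLK2 acts in centriole duplication, and PLK3 acts in the responses to DNA damage and other stress, whereas their relative PLK1 drives mitosis.

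Upstream sequence was at hand for 4 of the 5 genes (GADD45B, GADD45G, PLK2 and PLK3), from RefSeq on GRCh38.p14, and the 250 bases before each start site were searched on both strands. The sequences of GADD45B, GADD45G and PLK2 are shown because the intensities of the first pair moved together at 44 °C while that of PLK2 did not. They are written 5′ to 3′ on the strand of the gene: GADD45B at chr19:2475877-2476126 (plus strand), GADD45G at chr9:89604762-89605011 (plus strand) and PLK2 at chr5:58460087-58460336 (minus strand). Capitals mark the TATA box core TATAA in all 3, the CCAAT box in the GADD45 genes and TGACG, the core of the cAMP response element, in PLK2.
GADD45B: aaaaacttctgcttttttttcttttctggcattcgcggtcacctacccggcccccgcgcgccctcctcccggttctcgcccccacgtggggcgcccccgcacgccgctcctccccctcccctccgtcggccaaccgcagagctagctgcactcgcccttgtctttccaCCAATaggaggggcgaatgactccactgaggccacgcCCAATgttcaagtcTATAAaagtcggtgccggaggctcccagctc
GADD45G: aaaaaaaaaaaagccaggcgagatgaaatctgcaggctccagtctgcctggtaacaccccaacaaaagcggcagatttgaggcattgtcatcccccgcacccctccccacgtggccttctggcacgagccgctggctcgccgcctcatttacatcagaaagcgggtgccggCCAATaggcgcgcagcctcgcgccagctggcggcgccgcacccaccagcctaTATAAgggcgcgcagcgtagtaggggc
PLK2: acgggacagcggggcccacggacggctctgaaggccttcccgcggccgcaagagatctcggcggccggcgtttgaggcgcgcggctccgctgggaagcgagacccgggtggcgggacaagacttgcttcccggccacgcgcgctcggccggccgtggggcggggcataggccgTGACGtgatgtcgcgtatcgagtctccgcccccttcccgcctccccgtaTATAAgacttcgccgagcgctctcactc

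The letters TATAA began 31 bases upstream in GADD45B, 27 in GADD45G and 28 in PLK2, and were not found in PLK3. Of the 35116 promoters in the table, 18.9% held TATAA on either strand, and 3.91% held it on the strand of the gene with its first base 40 to 20 bases upstream, a window set after these matches were seen. CCAAT lay 82 and 45 bases upstream in GADD45B and 79 in GADD45G, and 32.0% of promoters held it. TGACG began 77 bases upstream in PLK2, and 21.2% of promoters held it. GADD45B also matched the NF-kB consensus (9.96% of promoters) at 163 bases on its own strand and at 15 bases on the opposite strand. The EGR1 motif GCGNGGGCG (8.41%) matched at 159 bases, on the opposite strand, and overlaps the first NF-kB match. None of the 4 windows held GAANNTTC (5.78% of promoters) or TTCNNGAA (6.62%), the paired repeats of a heat shock element, the AP-1 motif TGANTCA (6.57%) or a CArG box (1.16%). These matches describe letters, and binding was not measured.

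Values are probe set intensities on a linear scale. A floor of 21.4, the median of all values, was used: lower values were set to it, and a fold against a value below it is given as "at least". Folds are those of the deposited values, and such a bound holds for these values alone. Arrays differed in overall level: over probe sets that stayed above the floor throughout, the heated arrays had a median log2 shift against the control of between -0.35 (44 °C, 12 h) and 0.40 (44 °C, 0 h). A probe set is therefore said to have risen or fallen only where it passed 2-fold on 3 scales: the deposited values, quantile-normalized values, and values with that median shift taken off. All 6 epithelial markers with a single-gene probe set (KRT5, KRT14, SFN, DSG3, CDH1 and EPCAM) were above the floor on every array. Their summed intensity was 36615 to 48641, against 31.1 to 61.4 for 3 leukocyte markers, and 37.1 to 63.2 for 3 endothelial markers. PTPRC, VWF and CDH5 were below the floor throughout, CD14 was above it on 4 arrays (at most 43.5), CD3E on 2, and PECAM1 on all 7 (30.6 to 51.2). The 5 fibroblast markers summed to 183 to 379, mostly from COL1A1 (139 to 307), with PDGFRA below the floor on every array.

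At 44 °C GADD45G and 1 of the PLK3 probe sets rose at all 3 recovery times. There 3 of the 4 GADD45B probe sets rose at 6 and 12 h, and the last at 12 h alone. Another PLK3 probe set, 204958_at, fell at 44 °C, 12 h. At 42 °C, 0 h, PLK2 and GADD45A fell and GADD45G rose. At 42 °C, 0 h, 1 of the 10 probe sets rose (1.76% of all 36482 probe sets that reached the floor on any array rose) and 2 fell (2.94%). At 42 °C, 6 h, 0 rose (1.7%) and 0 fell (1.87%), and at 42 °C, 12 h, again 0 rose (0.932%) and 0 fell (1.64%). At 44 °C, 2 rose at 0 h (3.24%), 5 at 6 h (1.69%) and 6 at 12 h (1.61%). The falls at 44 °C numbered 0 at 0 h (1.06%), 0 at 6 h (3.22%) and 1 at 12 h (4.33%). All 10 probe sets reached the floor on some array, and GADD45B alone supplied 3 of the 5 risen at 6 h and 4 of the 6 at 12 h. Probe sets of 1 gene are not replicates, and since the genes were chosen on these values nothing is read from the shares.

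**Figure D1:**
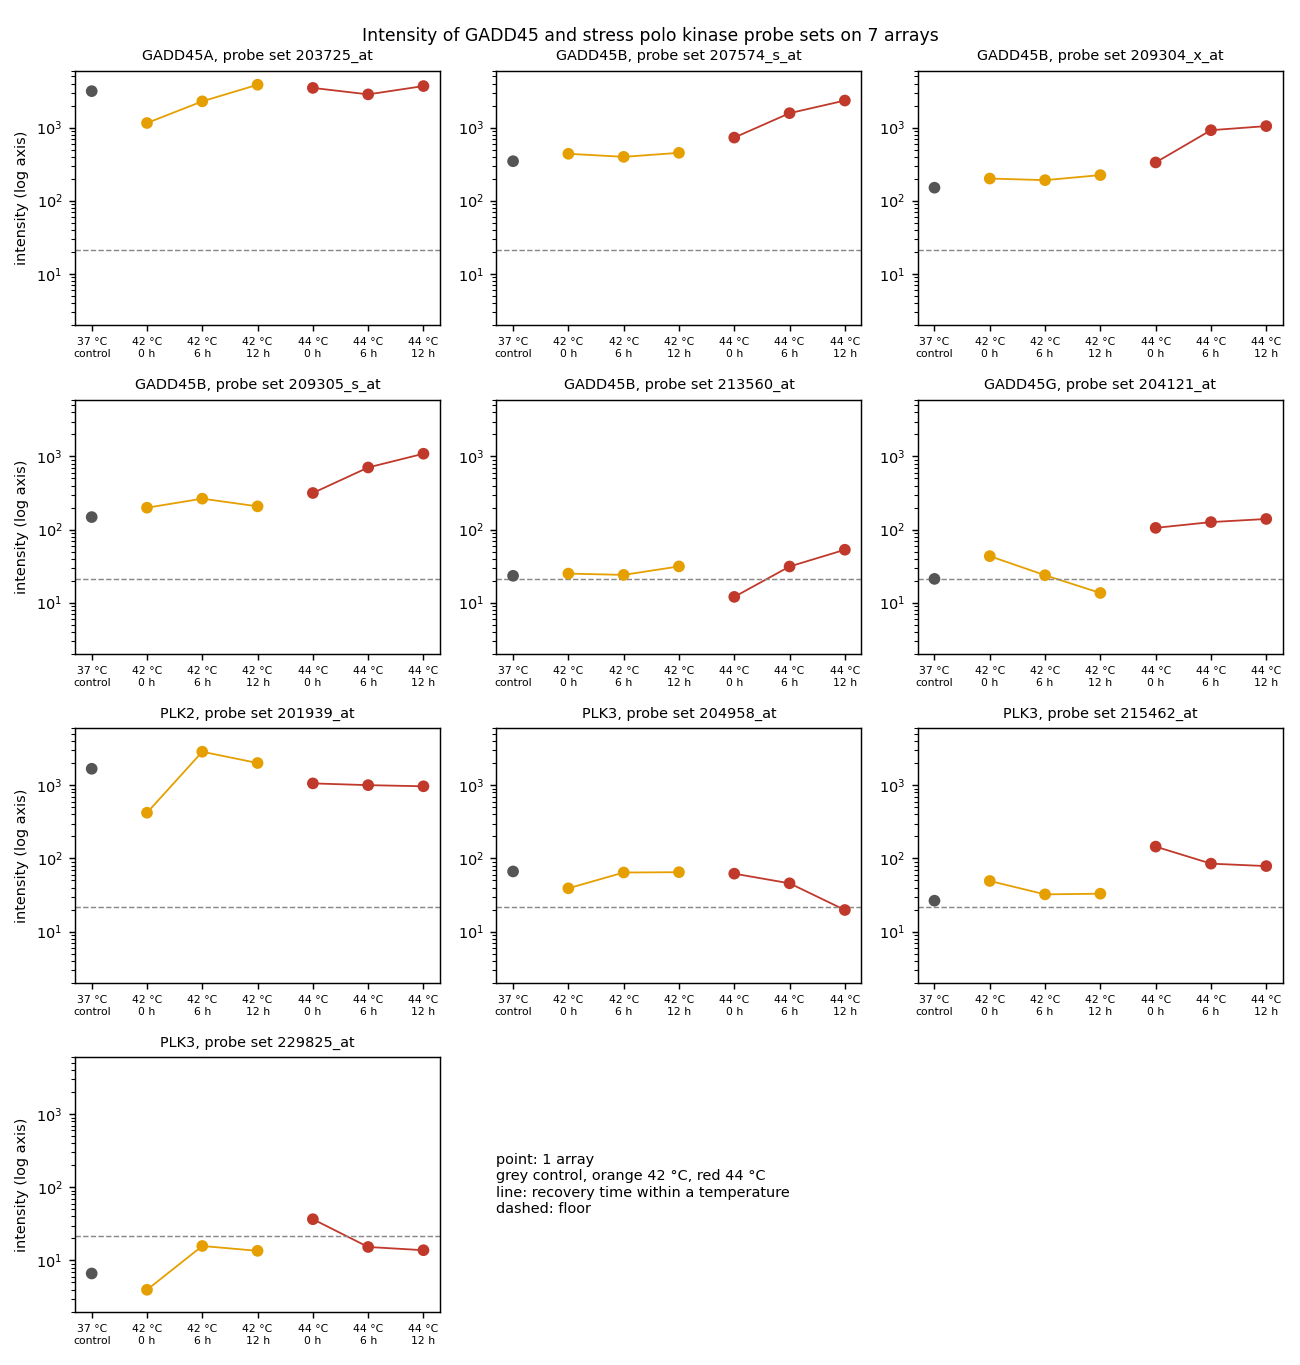
Intensity (log axis) of each of the 10 probe sets on the 7 arrays, with grey for the control, orange for 42 °C and red for 44 °C. Lines join the recovery times of 1 temperature, and the dashed line is the floor of 21.4. The first 3 GADD45B probe sets climb along the red line, and PLK2 has its lowest point at 42 °C, 0 h.

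GADD45A, the DNA damage-induced member, was bright on every array. Its probe set (203725_at) read 3143 in the control, 1153, 2281 and 3847 at 42 °C (0, 6 and 12 h) and 3483, 2840 and 3690 at 44 °C. The array at 42 °C, 0 h was the lowest, and the other 6 lay between 2281 and 3847. GADD45A fell 2.73-fold at 42 °C, 0 h, and the log2 difference was -1.45 as deposited, -1.44 on quantile-normalized values and -1.31 with the median shift taken off. No other heated array passed 2-fold against the control. At 44 °C, 0 h the sign depended on the scaling, with log2 differences of 0.15 as deposited, -0.33 on quantile-normalized values and -0.25 with the median shift taken off.

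GADD45B, the NF-kB and TGF-beta responsive member, had the largest number of probe sets, and 3 of its 4 moved together. Probe set 207574_s_at read 346 in the control, 437, 397 and 451 at 42 °C, and 728, 1571 and 2339 at 44 °C. Probe set 209304_x_at read 150 in the control, 200, 191 and 223 at 42 °C, and 333, 919 and 1045 at 44 °C. Probe set 209305_s_at read 148 in the control, 199, 264 and 207 at 42 °C, and 316, 706 and 1089 at 44 °C. As deposited, the control was the lowest array in all 3 and the 42 °C arrays lay next. The 44 °C arrays did not overlap with them and were higher the longer the recovery. The share of all probe sets with such an order was not counted, here or for GADD45G and PLK3 below. At 44 °C, 6 h they rose 4.54-fold, 6.12-fold and 4.77-fold, and at 12 h 6.76-fold, 6.95-fold and 7.36-fold.

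At 44 °C, 0 h the same 3 probe sets were 2.10-fold, 2.21-fold and 2.14-fold above the control as deposited. After quantile normalization their log2 differences were 0.76, 0.84 and 0.78, so they did not pass under every scaling. At 42 °C the differences were 1.15-fold to 1.79-fold as deposited. For 207574_s_at the direction at 42 °C, 6 h turned, from 0.20 as deposited to -0.10 after quantile normalization. The suffix _s_at marks probes shared by several transcripts and _x_at probes that may bind other transcripts as well, so these 3 probe sets are not fully specific by design.

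The fourth GADD45B probe set, 213560_at, was dim. It read 23.3 in the control, 25, 24.0 and 31.3 at 42 °C, and 12.0, 31.2 and 52.9 at 44 °C. It was highest at 44 °C, 12 h like the others, where it rose 2.27-fold, and unlike them it was below the floor at 44 °C, 0 h. With the floor doubled to 42.7 that rise was lost, at a log2 difference of 0.31.

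GADD45G, the cytokine-induced member, was near the floor without heat. Probe set 204121_at read 21.1 in the control, 43.3, 23.7 and 13.6 at 42 °C, and 105, 126 and 139 at 44 °C. The 44 °C arrays were above all others at every recovery time, and the control and the array at 42 °C, 12 h were below the floor. As deposited, GADD45G rose at least 2.03-fold at 42 °C, 0 h. At 44 °C it rose at least 4.93-fold, 5.92-fold and 6.53-fold after 0, 6 and 12 h. The first of these was smaller on the other scales. Its log2 bound was 2.30 as deposited, 1.85 on quantile-normalized values and 1.90 with the median shift taken off. With the floor doubled the rises at 42 °C, 0 h and at 44 °C, 0 h were lost, and those at 44 °C, 6 and 12 h remained, with log2 bounds of 1.57 and 1.71.

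PLK2, the kinase of centriole duplication, differed widely between recovery times at 42 °C. Probe set 201939_at read 1684 in the control, 421, 2880 and 2019 at 42 °C, and 1063, 1006 and 970 at 44 °C. It was lowest at 42 °C, 0 h and highest at 42 °C, 6 h, while the 44 °C arrays lay close to each other and below the control. PLK2 fell 4.0-fold at 42 °C, 0 h, with log2 differences of -2.00 as deposited, -1.95 on quantile-normalized values and -1.87 with the median shift taken off. At 42 °C, 6 h it was 1.71-fold above the control. At 44 °C it was 1.58-fold, 1.68-fold and 1.74-fold below it. The first of these passed 2-fold on quantile-normalized (-1.07) and shifted values (-1.06) but not as deposited.

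The 3 probe sets of PLK3, the kinase of DNA damage and stress responses, did not agree. Probe set 215462_at read 26.4 in the control, 49.2, 32.2 and 32.9 at 42 °C, and 145, 84.9 and 78.6 at 44 °C. Its 3 arrays at 44 °C were the highest and did not overlap with the rest, and it rose 5.49-fold, 3.21-fold and 2.97-fold there. With the floor doubled the rises at 6 and 12 h were lost, at log2 differences of 0.99 and 0.88, and the same holds for its differences from 42 °C at these times. At 42 °C, 0 h it was 1.86-fold above the control as deposited, and the log2 difference passed 1 only on quantile-normalized (1.17) and shifted values (1.03).

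Probe set 204958_at, the only one of the 3 that the annotation table ties to the PLK3 messenger RNA by an accession, went the other way. It read 66.4 in the control, 39.1, 64.2 and 64.9 at 42 °C, and 61.9, 45.7 and 19.7 at 44 °C. The control was the highest array and 44 °C, 12 h the lowest, below the floor, where it fell at least 3.11-fold. With the floor doubled that fall was lost. The last probe set, 229825_at, was below the floor on 6 arrays, at 3.97 to 15.8, and read 36.7 at 44 °C, 0 h. Across the 7 arrays the first and second of these probe sets had a Pearson correlation of -0.73 after quantile normalization and -0.37 as deposited. A single direction for PLK3 can therefore not be given.

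**Figure D2:**
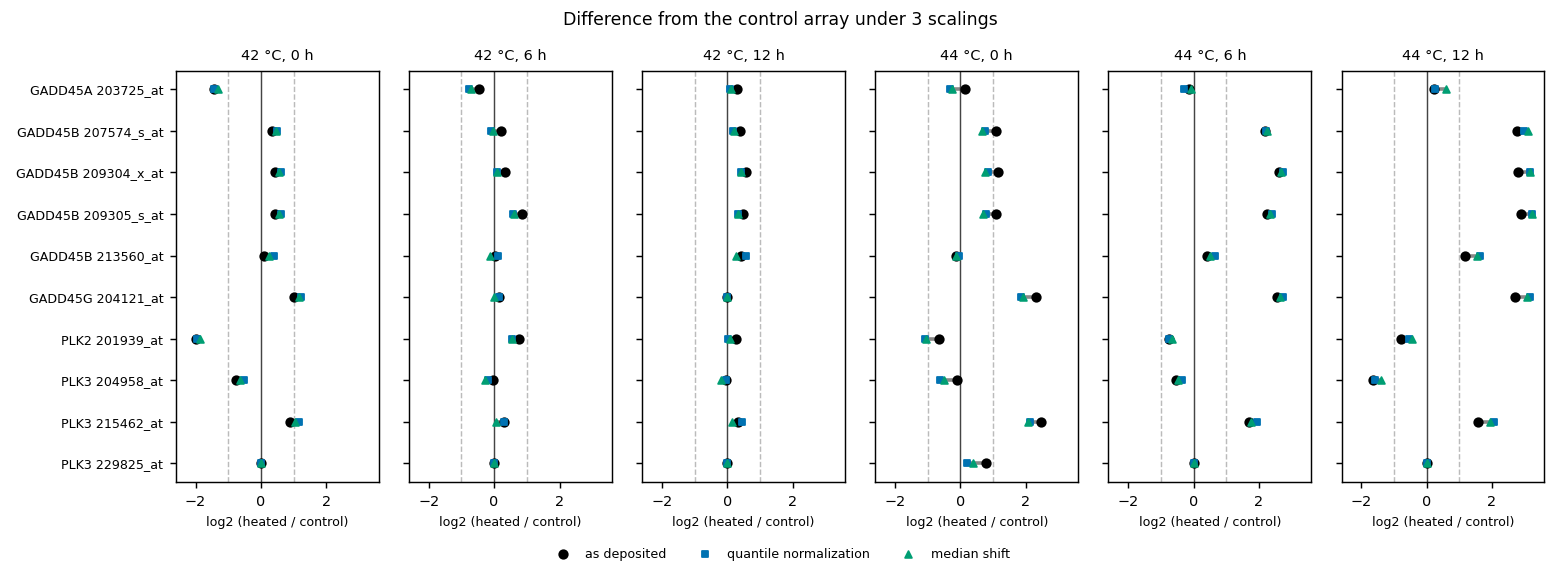
Log2 difference of each probe set from the control array, 1 panel per heated array. Black circles are deposited values, blue squares quantile-normalized values and green triangles values with the median shift taken off, joined by a grey bar, and dashed lines mark 2-fold. The first 3 GADD45B probe sets pass 2-fold under all 3 scalings at 44 °C, 6 h and 12 h, and as deposited only at 0 h.

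Comparing 44 °C with 42 °C at the same recovery time sets 1 array against 1 array, so temperature cannot be told apart from culture or array. These comparisons share no array with each other, but they reuse the arrays set against the control above. At 0 h, 1 of 10 probe sets was higher at 44 °C under every scaling (3.52% of all probe sets) and 0 were lower (0.746%). That one was GADD45A, at 3483 against 1153, or 3.02-fold. The lower value is the same one that gave its fall against the control. As deposited GADD45G (2.44-fold), PLK2 (2.52-fold) and PLK3 215462_at (2.95-fold) also passed 2-fold at 0 h, and the array at 44 °C, 0 h was the one with the highest overall level.

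At 6 h, 5 probe sets were higher at 44 °C (1.73%) and 1 was lower (4.79%). GADD45B was 3.96-fold, 4.82-fold and 2.67-fold higher with its first 3 probe sets, GADD45G 5.33-fold and PLK3 215462_at 2.63-fold. PLK2 was 2.86-fold lower, at 1006 against 2880. At 12 h, 5 were higher (1.83%) and 1 was lower (3.66%). GADD45B was 5.19-fold, 4.68-fold and 5.25-fold higher, GADD45G at least 6.53-fold and PLK3 215462_at 2.39-fold, whereas PLK3 204958_at was at least 3.04-fold lower. PLK2 was 2.08-fold lower as deposited at 12 h, a log2 difference of -1.06, against -0.58 after quantile normalization. GADD45A was at 3690 against 3847, and its sign turned from -0.06 to 0.20 between these scalings.

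**Figure D3:**
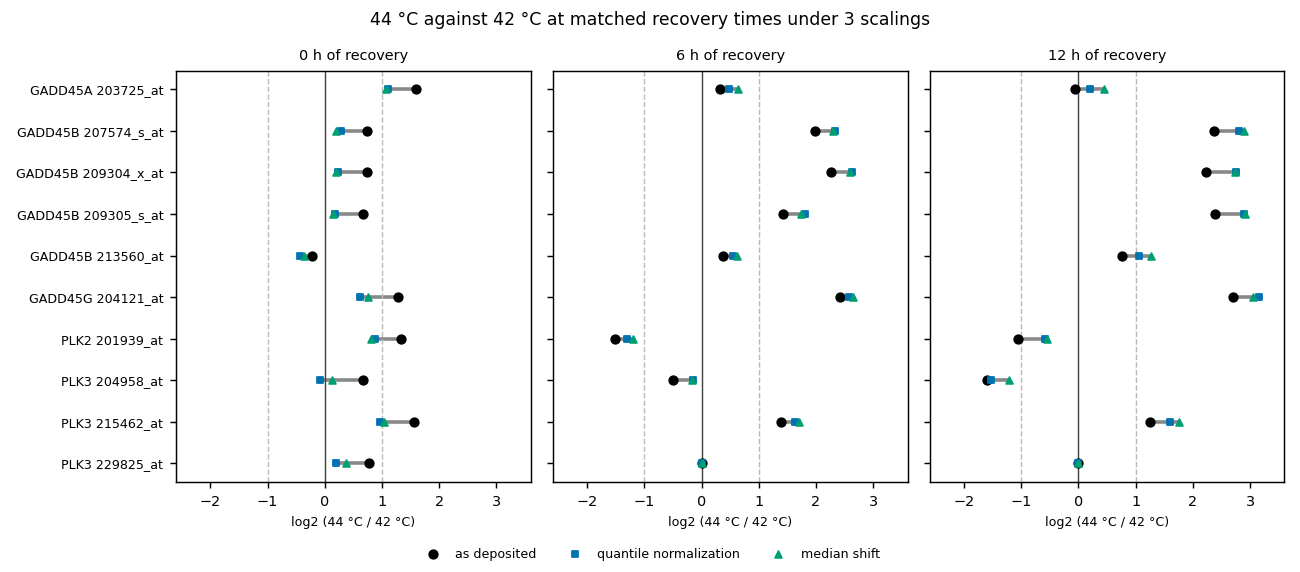
Log2 difference between 44 °C and 42 °C for each probe set at 0, 6 and 12 h of recovery, with the same symbols for the 3 scalings and dashed lines at 2-fold. At 6 and 12 h the first 3 GADD45B probe sets, GADD45G and PLK3 215462_at lie to the right of 2-fold under every scaling, and PLK2 lies to the left at 6 h.

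The recovery steps within a temperature add where the changes took place. They reuse the same arrays, so a step from 42 °C, 0 h shares that array with the falls against the control there. From 0 to 6 h after 42 °C, 1 probe set was higher (3.64% of all probe sets) and 0 were lower (1.17%): PLK2 went from 421 to 2880, or 6.83-fold. GADD45A went from 1153 to 2281 over the same step, 1.98-fold as deposited and 0.67 log2 units after quantile normalization, and on to 3847 at 12 h. GADD45G was 1.82-fold lower at 6 h than at 0 h after 42 °C, and the log2 difference was -0.87 as deposited and -1.07 after quantile normalization. From 0 to 6 h after 44 °C, 3 probe sets were higher (0.304%) and 0 were lower (2.16%), all of them GADD45B, at 2.16-fold, 2.76-fold and 2.23-fold. From 6 to 12 h, 0 of 10 were higher or lower under every scaling, both after 42 °C (0.803% and 1.2%) and after 44 °C (0.869% and 1.12%). GADD45B 207574_s_at was 1.49-fold higher at 12 h than at 6 h after 44 °C.

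Among themselves the members formed no single pattern over the 7 arrays, which share 1 array per condition and the array-wide levels. The first 3 GADD45B probe sets correlated with each other at 0.98 to 0.99 after quantile normalization. GADD45G correlated with GADD45B 207574_s_at at 0.94 (0.90 as deposited) and with PLK3 215462_at at 0.94 (0.91). With the dim GADD45B 213560_at it correlated at 0.655 (0.464). PLK3 204958_at went the other way, at -0.80 with GADD45G (-0.65) and -0.80 with GADD45B 207574_s_at (-0.77). GADD45A and PLK2, the pair that fell at 42 °C, 0 h, correlated at 0.51, and PLK2 with GADD45G at -0.49. These are descriptions of 7 points.

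The genes around the members in their pathways were counted from 7 lists of 79 genes in all, of which 69 had a single-gene probe set that reached the floor. Over all genes, between 0.719% and 3.63% rose or fell, in either direction, on a heated array against the control, so lists of this size with no change are not apart from that background. In the MAP kinase cascade, 0 of 10 measured members rose or fell on any heated array. MAP3K4, the kinase that GADD45 proteins activate, read 369 in the control, 214, 521 and 349 at 42 °C, and 279, 238 and 200 at 44 °C. Its largest difference from the control was 1.85-fold lower at 44 °C, 12 h. Of the 11 cell cycle partners and checkpoint genes, 0 rose or fell. CDKN1A, which binds GADD45 proteins and arrests the cycle, read 489 in the control and 410 to 813 after heat.

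The other polo kinases and mitotic activators also had 0 of 8 members risen or fallen against the control. PLK1, the mitotic kinase, read 353 in the control, 251, 780 and 498 at 42 °C, and 814, 323 and 275 at 44 °C. At 0 h it was 3.24-fold higher at 44 °C than at 42 °C under every scaling (2.98% of all genes were). As deposited it was 2.21-fold above the control at 42 °C, 6 h and 2.30-fold at 44 °C, 0 h, without passing under every scaling. PLK4, the centriole duplication kinase, was lowest at 42 °C, 0 h like PLK2, at 391 against 848, a 2.17-fold difference that did not pass under every scaling. PLK5 was below the floor on 6 arrays and read 33.6 at 44 °C, 12 h. The 5 measured partners of PLK2 and PLK3 had 0 risen or fallen. Of the 8 repair and demethylation partners, 1 rose: TET1, a methylcytosine dioxygenase, at least 3.12-fold at 42 °C, 6 h (1.52% of all genes rose), a call lost with the floor doubled. At 6 h, 3 of the 8 were lower at 44 °C than at 42 °C (4.5% of all genes): TET1 at least 3.12-fold, its relative TET2 3.47-fold and the glycosylase TDG 2.71-fold. TET2 was also 2.92-fold lower at 12 h (3.73%). GADD45GIP1, which binds GADD45G, read 536 in the control and 373 to 872 after heat.

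Of the 13 measured genes known to regulate the members, the zinc finger transcription factor EGR1 rose at 44 °C, 6 and 12 h. EGR1 read 747 in the control, 867, 521 and 555 at 42 °C, and 1898, 3849 and 4594 at 44 °C, so it was 6.15-fold higher at 12 h. ZNF350, a BRCA1-bound repressor of GADD45A, fell at least 2.31-fold at all 3 times after 44 °C, from 49.3 to below the floor, a call that a doubled floor does not allow. The measured list members at 44 °C, 12 h were otherwise not past 2-fold under every scaling. The list median there was -0.52 as deposited, against -0.16 over all genes, and -0.09 on quantile-normalized values, against 0.00, of which 1.74% rose and 3.63% fell.

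The list with the most changes was that of other immediate early genes. Of 16 measured, 4 rose at 44 °C, 0 h (2.12% of all genes), 7 at 6 h (1.54%) and 8 at 12 h (1.74%), and 0 fell at these times (0.719%, 2.74% and 3.63%). The list median at 44 °C, 12 h was 1.04, against -0.16 over all genes. At 42 °C, 5 rose and 2 fell at 0 h (1.48% and 3.19% of all genes), 0 rose or fell at 6 h (1.52% and 1.98% of all genes) and 2 rose and 0 fell at 12 h (0.991% and 1.41%). FOS, an AP-1 subunit, read 3.86 in the control, 130, 33.5 and 13.3 at 42 °C, and 471, 848 and 804 at 44 °C. FOSB rose at least 12.5-fold and ATF3, a stress-induced transcription factor, 9.73-fold at 44 °C, 12 h. Against 42 °C at the same time, the 44 °C array was higher for 4 of the 16 and lower for 1 at 0 h (2.98% and 0.625% of all genes). At 6 h, 8 were higher and 1 was lower (1.72% and 4.5%), and at 12 h, 7 were higher and 0 lower (1.83% and 3.73%). These early genes were listed with their behaviour in these arrays known.

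**Figure D4:**
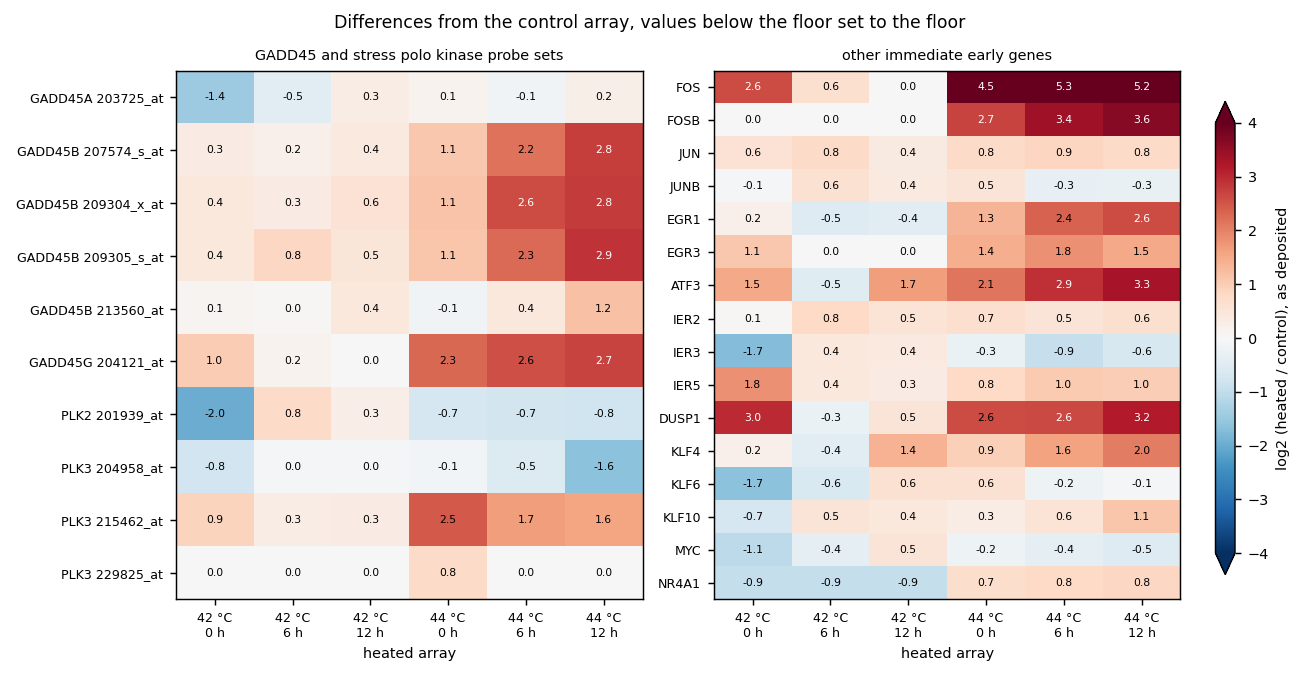
Log2 difference from the control as deposited, with values below the floor set to it, for the 10 member probe sets (left) and 16 other immediate early genes (right) on the 6 heated arrays. Colour runs from blue (lower) to red (higher) and each cell gives its value. FOS, FOSB, EGR1 and ATF3 are red on the 44 °C arrays, as are the first 3 GADD45B probe sets and GADD45G.

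To place each member, its log2 values after quantile normalization were correlated with those of 3348 of the 19775 genes. These had reached 4 times the floor and ranged over at least 2-fold on these same arrays. For each gene the probe set with the highest mean was taken. The nearest gene to GADD45G was FOS (r = 0.991 over 7 arrays), followed by HSD17B8, a mitochondrial ketoacyl reductase subunit, and IGFBP6, an IGF-binding protein (0.99 and 0.989). By Spearman correlation FOS again ranked first, HSD17B8 29th and IGFBP6 116th. The nearest to GADD45B were ARC, an activity-regulated early gene (0.987), NR4A2, an orphan nuclear receptor (0.98), and BAMBI, a pseudoreceptor of TGF-beta signalling (0.977). ARC was at 123 and 238 at 44 °C, 6 and 12 h, and below the floor in the control and on all 42 °C arrays. By Spearman correlation these 3 ranked only 119, 118 and 200. ARC, NR4A2 and BAMBI reached 4 times the floor only at 44 °C, where GADD45B was high, so the filter itself favoured this pattern.

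The nearest genes to GADD45A were HOOK2, a microtubule linker (0.978), the chemokine CCL20 (0.962) and the transcription factor KLF6 (0.942). KLF6 read 1066 in the control and 339 at 42 °C, 0 h. PLK2 was followed by CHAMP1, a chromosome alignment protein (0.983), YOD1, a deubiquitinase (0.982), and the transcription factor TFAP2A (0.98). YOD1 read 444 in the control, 113, 697 and 449 at 42 °C, and 303, 195 and 228 at 44 °C. PLK3 215462_at was nearest to FGF11 (0.988), MAD2L2, a subunit of translesion DNA polymerase zeta (0.984), and NPIPA1 (0.984). FGF11 passed the intensity filter only at 44 °C, where this PLK3 probe set was high, so the filter itself favoured that match. By Spearman correlation FGF11 ranked 63, behind MAD2L2 and NPIPA1. On deposited values MAD2L2 ranked 101, NPIPA1 113 and HSD17B8 86. These correlations describe 7 arrays that all values share, and they carry no p-value.

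**Figure D5:**
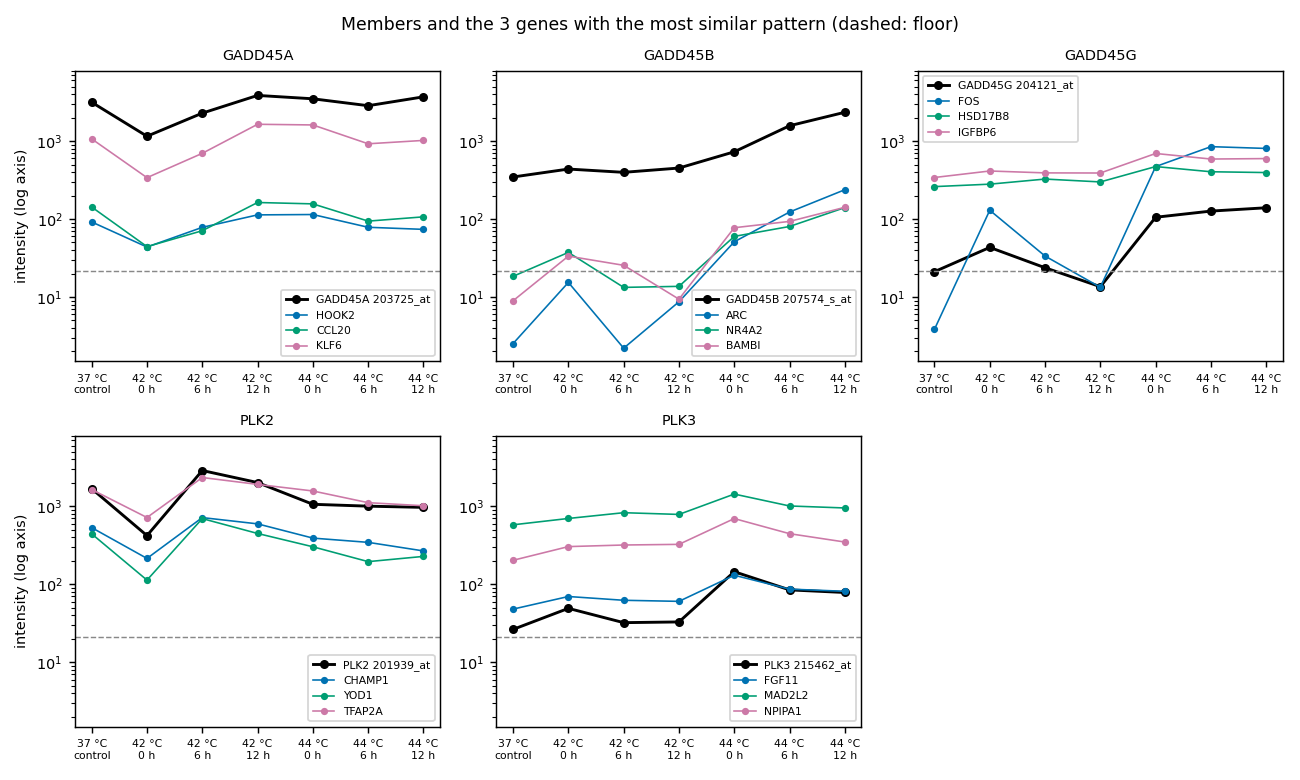
Intensity (log axis) of each member's probe set with the highest mean (black) and of its 3 nearest genes (coloured) on the 7 arrays. The floor is dashed, and the PLK3 probe set shown is 215462_at. The dip at 42 °C, 0 h is shared by PLK2 and its 3 genes, and FOS follows GADD45G above and below the floor.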

How the data were processed

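RNA of HSC-3 cells from 7 conditions was measured on 1 array each. The authors deposited probe set intensity values on a linear scale. Per the labels, biotin-labelled cRNA was made with a one-cycle protocol. The algorithm and any scaling behind the values are not given in the sources used here.

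Of 54675 probe sets, 41097 listed 1 gene, 1801 several and 11777 none in the annotation of the array, with symbols updated through a RefSeq gene table of GRCh38.p14. Each list gene was represented by the brightest (highest mean) of the probe sets that name it alone. Values under the pooled median of 21.4 were set to it after scaling, then log2 was taken. Calls need 2-fold under 3 scalings: deposited, quantile normalization, and removal of the median shift over 20902 probe sets. There is no test, since each condition has 1 array. The call rule was run on simulated data, with planted changes larger than 2-fold in bright probe sets. The simulated noise was smaller than the spread between probe sets of 1 gene. That run therefore says nothing about calls close to 2-fold or near the floor.

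One further planned gene list and motif are not reported here. The members and lists were chosen with earlier results of these data known. Named were all member probe sets, up to 3 called genes per list whose higher value reached 4 times the floor, and 3 nearest genes per member. MAP3K4, CDKN1A, PLK1, PLK4, PLK5, TET1, TET2, TDG, GADD45GIP1 and ZNF350 fall outside that rule, and their values were known when they were named. Python 3.11.15, pandas 2.3.3 and NumPy 2.4.6 were used. Alternatives were the single scalings, no floor, a doubled floor, a 3-fold threshold, the mean of probe sets, and other correlations.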

Additional observations from a re-analysis of the deposited data

How the results depend on the processing

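No paired analysis was possible because each condition has 1 array. Of the counts recomputed under an alternative, 113 stayed within 1.5 times the value reported and 37 did not. The 113 include counts of 0 that stayed at 0, which a stricter rule could not change. Of the risen member probe sets at 44 °C, the 5 at 6 h became 4 with the floor doubled, and the 6 at 12 h became 4 with the floor doubled or at 3-fold, with GADD45B 213560_at and PLK3 215462_at among the calls lost. For member probe sets risen against the control, the count of 1 at 42 °C, 0 h became 2 after quantile normalization alone and after the median shift alone, and 0 with the floor doubled or a 3-fold threshold. The 0 at 42 °C, 6 h became 1 without a floor, and the 2 at 44 °C, 0 h became 5 on the deposited values alone and 1 with the floor doubled. For those fallen, the 2 at 42 °C, 0 h became 1 at 3-fold, the 0 at 44 °C, 0 h became 1 after quantile normalization alone and after the median shift alone, and the 1 at 44 °C, 12 h became 0 with the floor doubled or at 3-fold. Between temperatures, the 1 higher at 0 h became 4 on the deposited values alone, 2 after the median shift alone or without a floor, and 0 at 3-fold. The 5 higher at 6 h became 3 at 3-fold. The 0 lower at 0 h became 1 without a floor, the 1 lower at 6 h became 0 at 3-fold, and the 1 lower at 12 h became 2 on the deposited values alone and 0 with the floor doubled or at 3-fold. For pathway list genes past 2-fold, the 7 at 42 °C, 0 h became 11 as deposited and 4 at 3-fold. The 1 at 42 °C, 6 h became 3 as deposited, 2 after quantile normalization, 2 after the median shift, 4 without a floor, and 0 with the floor doubled, at 3-fold or with the mean of probe sets. The 2 at 42 °C, 12 h became 5 without a floor, 0 at 3-fold and 1 with the mean of probe sets, and the 5 at 44 °C, 0 h became 10 as deposited and 8 without a floor. The 9 at 44 °C, 12 h became 15 after the median shift. Of the recomputed differences of single probe sets, 301 held and 59 moved by more than the standard deviation between probe sets of 1 gene (0.35 to 0.53 log2 units), and no called one changed sign. Probe sets above the doubled floor on every array could not move with the floor doubled or absent, so part of the 301 was fixed in advance. By construction, a threshold of 3-fold and a doubled floor can only lower a count of calls or leave it. A single scaling and the absence of a floor can only raise it or leave it. Beyond that, the cause of these moves was not tested. GADD45G, the dim GADD45B and the PLK3 probe sets lie near the floor, where low signal limits what a difference can show.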
